A study of Homo sapiens with 20 samples.

Results

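Fc receptors bind the constant part of antibodies and let white blood cells respond to what an antibody has caught. The genes described here are 10 genes chosen by symbol: FCGR1A, FCGR1B, FCGR2A, FCGR2B, FCGR3A and FCGR3B of the IgG receptor family, FCER1A and FCER1G of the IgE receptor, FCGRT of the neonatal Fc receptor and FCAR, the IgA receptor. All 10 were found among the 28051 named genes of the RNAseq files, and 1 of the 8286 ATACseq regions lists a member, FCGR3B.

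HL60, a human acute myeloid leukemia line of promyelocytic cells, was studied as HK3-null cells and as Cas9 expressing control cells. HK3 encodes hexokinase 3, a hexokinase of myeloid cells. Both kinds of cell were treated for 36 h with 1 µM ATRA, a retinoid that drives HL60 towards neutrophils, or with 0.01% DMSO as the diluent control. RNAseq was performed on 3 libraries and ATACseq on 2 libraries of each of the 4 combinations. The knockout lines of the study were made by lentiviral Cas9 and guide delivery with puromycin selection and taken from single cells, and all HK3-null libraries carry the same label, so that a difference between genotypes cannot be told apart from a difference between clones. The control cells carry Cas9 as well.

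The members differ in role. The receptors that hold the antibody are FCGR1A (the high-affinity IgG receptor CD64), FCGR2A and FCGR2B (activating and inhibitory CD32), FCGR3A and FCGR3B (CD16), FCER1A (the IgE-binding chain) and FCAR (CD89). FCER1G, the common gamma chain, binds no antibody itself but carries the signalling motif (ITAM) for CD64, CD16a, CD89 and the IgE receptor. FCGRT pairs with beta-2 microglobulin and returns IgG from endosomes to the surface instead of carrying an ITAM signal. In the blood CD64 marks monocytes and stimulated neutrophils, CD16b is a marker of mature neutrophils, and CD89 is found on neutrophils, monocytes and eosinophils.

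The members lie on 2 chromosomes of GRCh38. FCER1G (chr1:161215295-161219245), FCGR2A (chr1:161505457-161524048), FCGR3A (chr1:161541759-161550737), FCGR3B (chr1:161623196-161631963) and FCGR2B (chr1:161647243-161678654) lie near each other, with FCER1A (chr1:159283575-159308202), FCGR1A (chr1:149782694-149800609) and FCGR1B (chr1:121087345-121097161) elsewhere on chromosome 1. FCGRT (chr19:49512661-49526428) and FCAR (chr19:54874235-54891420) lie on chromosome 19. RefSeq now lists FCGR1B as FCGR1BP, a transcribed pseudogene.

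Several of these genes are near-identical copies, which bears on how reads were divided between them. Of the 42-base windows of the FCGR1A transcript, 80.6% also occur in another gene of the family, most of them in FCGR1BP, and for FCGR1BP this share was 40.3%. The shares were 40.9% for FCGR3A and 40.8% for FCGR3B, all with each other, 35.5% for FCGR2B and 16.7% for FCGR2A. FCER1G, FCER1A, FCGRT and FCAR shared 0% of their windows with the family. Values of the copied genes are therefore uncertain as to which copy they belong to, since the way reads were counted is not known here.

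Promoter sequence is shown for FCGR1A and FCGR2A because these genes hold a stretch in common and went the same way in all 4 comparisons of the RNAseq data. By the sign of the fitted change, FCGR1B and FCAR went that way too. Whether the stretch bears on the levels was not tested. RefSeq promoters on GRCh38.p14 matched 8 of the 10 members, and FCGR1B and FCAR had no entry. The 150 bases before each transcript start are given 5′ to 3′, with the shared run of 20 bases in capitals (both on the plus strand, chr1:149782544-149782693 for FCGR1A and chr1:161505307-161505456 for FCGR2A).
FCGR1A: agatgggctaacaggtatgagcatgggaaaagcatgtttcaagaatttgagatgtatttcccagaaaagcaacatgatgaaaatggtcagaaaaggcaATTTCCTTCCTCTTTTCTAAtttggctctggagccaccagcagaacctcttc
FCGR2A: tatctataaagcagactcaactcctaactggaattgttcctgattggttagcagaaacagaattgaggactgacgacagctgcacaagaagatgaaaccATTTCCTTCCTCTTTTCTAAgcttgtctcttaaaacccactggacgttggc
The run starts 52 bases before the transcript start of FCGR1A and 51 bases before that of FCGR2A. Of 35116 RefSeq promoters of the same length, 2 hold it. The longest run shared by a pair of the 8 member promoters had a median of 8 bases over 28 pairs, the FCGR3A and FCGR3B pair shared 106, and the next longest after these was 11. Inside the run lies CTTCCTC, the reverse complement of GAGGAAG, a form of the motif of the myeloid factor PU.1, which 13.6% of all promoters hold on either strand. Of the 8 member promoters, FCGR1A and FCGR2A held GAGGAAG. The interferon-type STAT motif TTCNNNGAA was found in FCGR1A (7.7% of all promoters), and TTNNGNAA, a loose form of the C/EBP motif, in FCGR2A and FCGRT (36.8%). AGGTCA, a single unit of a retinoid receptor element and not a whole element, was found in FCGR2B and FCGR3A (13.8%).

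FCGRT is shown beside them because its level changed most among the members that were above 0 in every library. Its 150 bases (plus strand, chr19:49512511-49512660) are given with the TTNNGNAA match in capitals.
FCGRT: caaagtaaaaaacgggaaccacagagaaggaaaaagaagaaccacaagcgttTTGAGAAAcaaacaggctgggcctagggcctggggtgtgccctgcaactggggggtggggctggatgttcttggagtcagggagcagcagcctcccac

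The RNAseq values are counts that the authors scaled between libraries and rounded, called normalized counts here. They summed to 29053838 to 31548189 per library, and the depth before scaling was estimated at 22700000 to 37000000 counts. Differences were tested with limma in 1 fit of all 12 libraries over 13256 genes, and a gene is called when its Benjamini-Hochberg adjusted p is under 0.05 and it changed at least 2-fold. HK3 itself was not reduced under the HK3-null label: it read 344, 302 and 346 normalized counts in HK3-null and 90, 65 and 105 in Cas9 control cells in DMSO, and 1384, 1285 and 1975 against 1305, 1298 and 1850 in ATRA. Transcript counts do not show whether the protein was lost. The paper checked its knockout clones by sequencing the cut site and by mass spectrometry. After vitamin D treatment the latter detected HK3 in HL60 control cells and not in pooled HK3 knockout clones. Cas9 control DMSO replicate 1 stood apart, with 16750 genes above 0, while the remaining 11 had 15031 to 15801. The summed levels of 7 promyelocyte markers were 548510 to 827864 in all libraries, MPO foremost.

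Of the 10 members, 7 passed the filter on low values, and 4 of these were called higher in HK3-null than in Cas9 control cells in DMSO, against 11.1% of all tested genes called higher, 8.2% lower and 19.3% either way. The 4 genes were FCAR, FCGRT, FCGR1B and FCGR3B. In ATRA the same 4 and FCER1G were called higher, 5 in all, against a background of 11.4% higher, 9.93% lower and 21.3% either way. No member was called lower in either comparison. FCGR3B passed the filter through the HK3-null libraries alone, which means that it had to differ, and without it 3 of 6 were called in DMSO and 4 of 6 in ATRA. Groups without overlap were common: in DMSO, 31.8% of all tested genes were higher in every HK3-null than in every control library, and 31.9% lower. In ATRA these shares were 32.2% and 31.2%. For ATRA against DMSO they were 25.4% and 25.9% in Cas9 control cells and 29.6% and 29.0% in HK3-null cells.

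**Figure D1:**
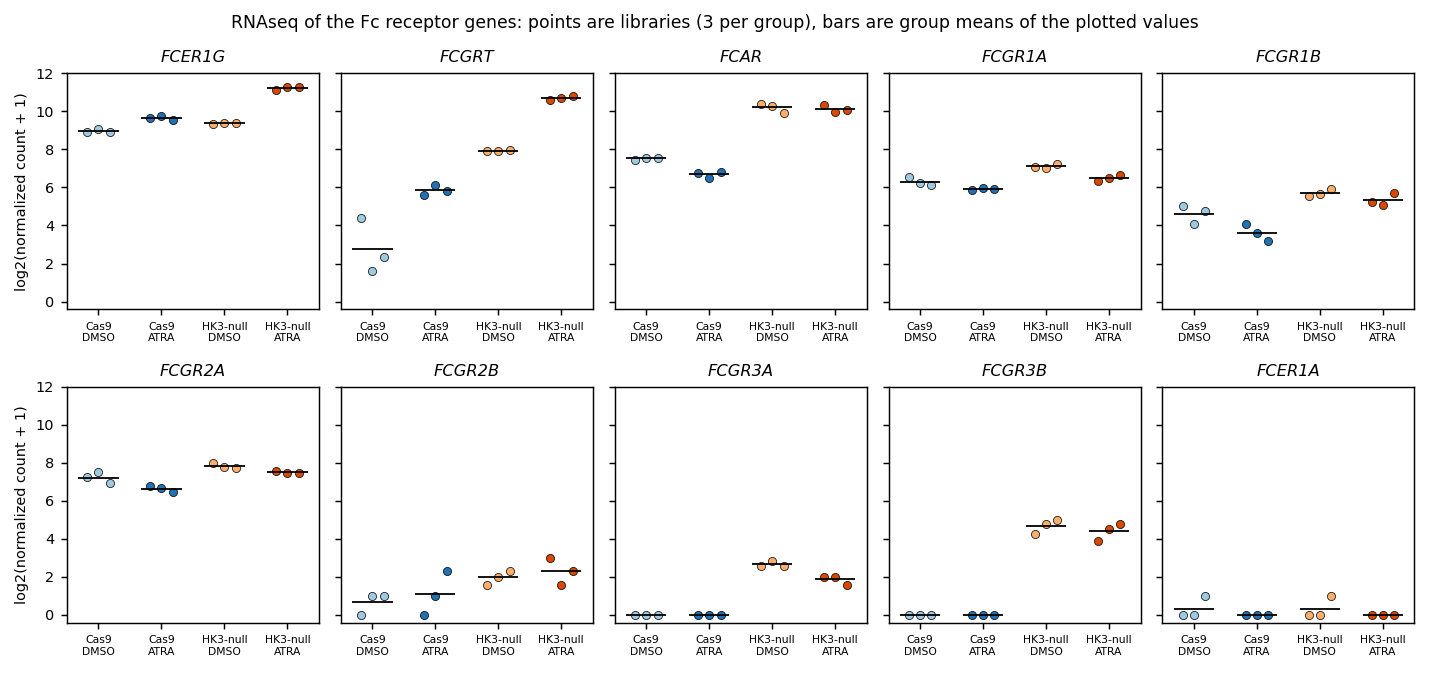
Log2 of the normalized count plus 1 (vertical axis) for each of the 10 Fc receptor genes in the 12 RNAseq libraries; points are libraries, 3 per group, and bars are the means of the plotted values. FCAR and FCGRT were higher in all HK3-null libraries, FCER1G was highest in HK3-null cells in ATRA (2220 to 2480 normalized counts), FCGR3A and FCGR3B were at 0 in all Cas9 control libraries, and FCER1A was at 0 or 1.

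FCAR, the IgA receptor, separated the genotypes with or without ATRA. Cas9 control cells held 173, 188 and 189 normalized counts of FCAR in DMSO and 106, 89 and 111 in ATRA. HK3-null cells held 1346, 1238 and 975 in DMSO and 1278, 998 and 1070 in ATRA. The groups of the 2 genotypes did not overlap, and the HK3-null libraries with and without ATRA did. The difference between genotypes was 2.68 on the log2 scale in DMSO (SE 0.14, adjusted p = 3.41e-08) and 3.45 in ATRA (SE 0.14, adjusted p = 5.34e-09). ATRA lowered FCAR in Cas9 control cells by a log2 change of -0.85 (SE 0.14, adjusted p = 0.0005), short of 2-fold, and in HK3-null cells the change was -0.08 (adjusted p = 0.648). The ATRA change differed between genotypes by 0.77 (SE 0.19, adjusted p = 0.0311), a call that was lost when any 1 of 6 libraries was left out: Cas9 control ATRA replicate 2 (adjusted p = 0.0728), Cas9 control DMSO replicates 2 (0.0695) and 3 (0.0656), HK3-null ATRA replicate 1 (0.0689) and HK3-null DMSO replicates 2 (0.0566) and 3 (0.0601).

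FCER1G, the gamma chain through which CD89 and CD64 signal, responded to ATRA in both genotypes and more so in HK3-null cells. In Cas9 control cells it read 484, 530 and 479 normalized counts in DMSO and 811, 873 and 739 in ATRA. In HK3-null cells the readings were 649, 673 and 663 in DMSO and 2220, 2462 and 2480 in ATRA. No 2 of these 4 groups overlapped. The ATRA change was 0.70 on the log2 scale in Cas9 control cells (SE 0.08, adjusted p = 2.81e-05), short of 2-fold, and 1.85 in HK3-null cells (SE 0.08, adjusted p = 7.43e-09). The difference between these changes was 1.15 (SE 0.11, adjusted p = 7.47e-05), and it stayed between 1.09 and 1.26 under all alternatives tried. Between genotypes FCER1G differed by 0.41 in DMSO (SE 0.08, adjusted p = 0.000742) and by 1.57 in ATRA (SE 0.08, adjusted p = 2.14e-08). Of all tested genes, 9.12% had an interaction of genotype and treatment (4.48% positive and 4.64% negative), and FCER1G and FCAR were the 2 members that did. With the replicate number in the fit as a block, 2898 of the 13256 tested genes had an interaction, against 1209 without it. The members with an interaction stayed at 2.

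FCGRT, the heavy chain of the neonatal Fc receptor, was close to absent from untreated control cells and rose with ATRA in both genotypes. Its normalized counts in Cas9 control cells were 20, 2 and 4 in DMSO and 47, 70 and 55 in ATRA. HK3-null cells had 244, 236 and 250 in DMSO and 1567, 1644 and 1768 in ATRA. The highest value in DMSO control cells came from replicate 1, the library that stood apart, and HK3-null cells without ATRA were above control cells with it. The ratio of the means between genotypes was 28.1 in DMSO and 28.9 in ATRA, and the ratio of ATRA to DMSO was 6.62 in Cas9 control and 6.82 in HK3-null cells. On the log2 scale the genotypes differed by 5.49 (SE 0.61, adjusted p = 1.57e-05) in DMSO and by 4.87 (adjusted p = 3.44e-05) in ATRA, and ATRA changed FCGRT by 3.38 (adjusted p = 0.00104) in Cas9 control and by 2.77 (adjusted p = 0.00283) in HK3-null cells. Without Cas9 control DMSO replicate 1 the genotype difference in DMSO was 6.43 and the ATRA change in control cells 4.32, both called, and without replicate 2 they were 4.77 and 2.66, both called. The interaction was -0.61 (adjusted p = 0.755), but -1.55 (adjusted p = 0.0261) without Cas9 control DMSO replicate 1 and 0.11 (adjusted p = 0.96) without replicate 2 of that group.

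**Figure D2:**
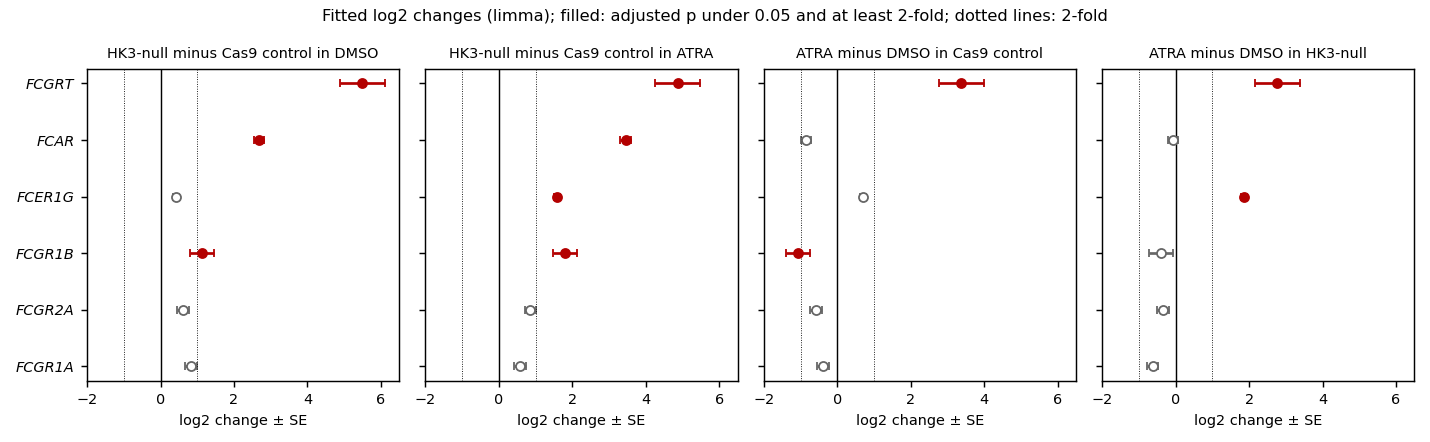
Log2 change with its SE (horizontal axis) from the limma fit for the 6 tested members above 0 in every library, in 4 comparisons; filled points are called genes, and dotted lines mark 2-fold changes. All 6 lie to the right of 0 in both comparisons of the genotypes, while under ATRA FCGRT and FCER1G lie to the right and FCGR1A, FCGR1B, FCGR2A and FCAR to the left.

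FCGR1A and FCGR2A, the receptors whose promoters share the run shown above, differed modestly between genotypes. FCGR1A had 94, 73 and 68 normalized counts in Cas9 control cells in DMSO, 57, 61 and 60 in ATRA, 133, 130 and 149 in HK3-null cells in DMSO and 79, 88 and 99 in ATRA. The HK3-null values were above the control values at the same treatment in every library. The difference was 0.82 in DMSO (SE 0.16, adjusted p = 0.000916) and 0.57 in ATRA (SE 0.16, adjusted p = 0.00788), both under 2-fold. With ATRA, FCGR1A fell by 0.63 on the log2 scale in HK3-null cells (adjusted p = 0.00553), and in control cells the change was -0.39 (adjusted p = 0.0676).

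FCGR2A, the activating CD32, had 149, 180 and 121 normalized counts in Cas9 control cells in DMSO, 109, 101 and 86 in ATRA, 253, 220 and 207 in HK3-null cells in DMSO and 189, 173 and 174 in ATRA. Here too the genotypes did not overlap at either treatment, and ATRA libraries were below DMSO libraries in each genotype. Such orders were common among all tested genes, by the shares given above. The genotypes differed by 0.61 in DMSO (SE 0.16, adjusted p = 0.0064) and by 0.86 in ATRA (SE 0.16, adjusted p = 0.000596). The ATRA change was -0.59 in control cells (adjusted p = 0.0104) and -0.34 in HK3-null cells (adjusted p = 0.0953). Neither gene had an interaction (FCGR1A -0.25, adjusted p = 0.585, and FCGR2A 0.25, adjusted p = 0.577).

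FCGR1B, the copy of FCGR1A, was lower in count and followed the same order of genotypes. Its normalized counts were 31, 16 and 26 in Cas9 control cells in DMSO, 16, 11 and 8 in ATRA, 46, 49 and 60 in HK3-null cells in DMSO and 36, 33 and 51 in ATRA. The genotypes did not overlap, whereas the treatments overlapped within each genotype. The genotype difference was 1.13 in DMSO (SE 0.33, adjusted p = 0.0126) and 1.81 in ATRA (SE 0.33, adjusted p = 0.000598). The call in DMSO was lost without Cas9 control DMSO replicate 2 (0.85, adjusted p = 0.0539). ATRA changed FCGR1B by -1.07 in control cells (SE 0.33, adjusted p = 0.0227), which was not called without Cas9 control ATRA replicate 2 (adjusted p = 0.0566) or 3 (0.0848) or without Cas9 control DMSO replicate 1 (0.0841) or 3 (0.0647), and in HK3-null cells the change was -0.39 (adjusted p = 0.36).

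The CD16 genes were found in HK3-null libraries alone. FCGR3B, a receptor anchored by lipid and without a signalling tail, was at 0 in all 6 Cas9 control libraries and read 18, 26 and 31 normalized counts in HK3-null cells in DMSO and 14, 22 and 26 in ATRA. Against a floor of 3 counts per library this was at least 9.1-fold higher in DMSO and at least 6.15-fold higher in ATRA, given as a description because the gene passed the filter through these libraries. With and without ATRA the HK3-null libraries overlapped, with a log2 change of -0.29 (adjusted p = 0.891). FCGR3A, the transmembrane CD16, was also at 0 in the 6 control libraries and had 5, 6 and 5 normalized counts in HK3-null cells in DMSO, at least 1.94-fold above the floor, and 3, 3 and 2 in ATRA. Since FCGR3A and FCGR3B share 40.9% of their transcript windows, the few FCGR3A counts cannot be assigned firmly to that copy.

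FCGR2B, the inhibitory CD32, and FCER1A, the IgE-binding chain, were too low to be tested. FCGR2B had 0, 1 and 1 normalized counts in Cas9 control cells in DMSO, 0, 1 and 4 in ATRA, 2, 3 and 4 in HK3-null cells in DMSO and 7, 2 and 4 in ATRA. In DMSO the HK3-null values of FCGR2B lay above the control values, at 4 normalized counts or fewer, and in ATRA the genotypes overlapped. Whether the genotypes differ was not tested at these counts. FCER1A had 1 normalized count in Cas9 control DMSO replicate 3 and 1 in HK3-null DMSO replicate 3, and 0 in the other 10 libraries.

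With ATRA, 2 members were called in each genotype. In Cas9 control cells 2 members were called, FCGRT higher and FCGR1B lower, against 9.63% of tested genes called (6.84% higher and 2.78% lower). In HK3-null cells FCGRT and FCER1G were called higher, against 14.1% called (8.06% higher and 6.05% lower). These comparisons share libraries with the comparisons of the genotypes.

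Levels between genes were compared per kilobase of the canonical transcript. FCER1G was highest in every group, with mean normalized counts per kb of 844 in Cas9 control DMSO, 1370 in Cas9 control ATRA, 1120 in HK3-null DMSO and 4050 in HK3-null ATRA. In HK3-null ATRA the order by mean was FCER1G, FCGRT (1100), FCAR (450), FCGR2A (67.5), FCGR1A (66.5), FCGR1B (20.5), FCGR3B (9.83), FCGR2B (2.03) and FCGR3A (1.27), with FCER1A at 0. FCGR2A (65.4 to 71.4 per kb) and FCGR1A (59.3 to 74.3) overlapped in that order, as did FCGR2B and FCGR3A, and the other neighbours did not. In Cas9 control DMSO the order began with FCER1G, FCAR (74), FCGR1A (58.8) and FCGR2A (56.7), and FCGRT, at 5.74 per kb, came after FCGR1B (12.5). Here FCAR (69.9 to 76.3 per kb) overlapped FCGR1A (51.0 to 70.5), FCGR1A overlapped FCGR2A (45.7 to 68.0), and FCGR1B (8.21 to 15.9) overlapped FCGRT (1.32 to 13.2). By mean, FCGRT stood in place 6 in untreated control cells and in place 2 in HK3-null cells with ATRA.

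Receptors of this family need partner chains and kinases, and these genes were looked at next. FCER1G has a sister chain, TYROBP (DAP12), which carries the same kind of motif. TYROBP read 411, 443 and 470 normalized counts in Cas9 control DMSO, 1142, 1318 and 1363 in Cas9 control ATRA, 2095, 2128 and 2173 in HK3-null DMSO and 6486, 7078 and 6718 in HK3-null ATRA. It was higher in HK3-null cells by 2.27 in DMSO (SE 0.07, adjusted p = 1.2e-09) and by 2.41 in ATRA (SE 0.07, adjusted p = 7.47e-10), and its interaction was 0.14 (adjusted p = 0.515), against 1.15 for FCER1G. B2M, the light chain that FCGRT requires, ran the other way from FCGRT between genotypes. Its means were 44070 in Cas9 control DMSO and 25000 in HK3-null DMSO, a log2 change of -0.82 (SE 0.06, adjusted p = 3.6e-07), and -0.73 in ATRA (adjusted p = 7.6e-07), both short of 2-fold. MS4A2, the beta chain of the IgE receptor, fell from 81, 96 and 127 normalized counts in Cas9 control DMSO to 12, 7 and 14 in HK3-null DMSO (-3.24, SE 0.39, adjusted p = 2.8e-05).

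The kinases that phosphorylate the motif belong to the SRC family, and SYK binds it once phosphorylated. FGR, a SRC family kinase of myeloid cells, had 48, 46 and 36 normalized counts in Cas9 control DMSO, 11122, 11773 and 13015 in Cas9 control ATRA, 1241, 1080 and 1214 in HK3-null DMSO and 23270, 23046 and 25482 in HK3-null ATRA. The genotypes differed by 4.77 in DMSO (SE 0.11, adjusted p = 6.33e-11) and by 1.00 in ATRA (adjusted p = 9.34e-06). LYN, a kinase of the same family, was higher in HK3-null cells by 1.62 (adjusted p = 9.16e-06) in DMSO and by 1.78 in ATRA (adjusted p = 3.6e-06). SYK had means of 5241 and 5628 in DMSO and 6885 and 7677 in ATRA in Cas9 control and HK3-null cells, with log2 differences of 0.10 (adjusted p = 0.0844) and 0.16 (adjusted p = 0.013). LYN, SYK, TYROBP and B2M, and below SPI1, were chosen after their values were seen.

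**Figure D3:**
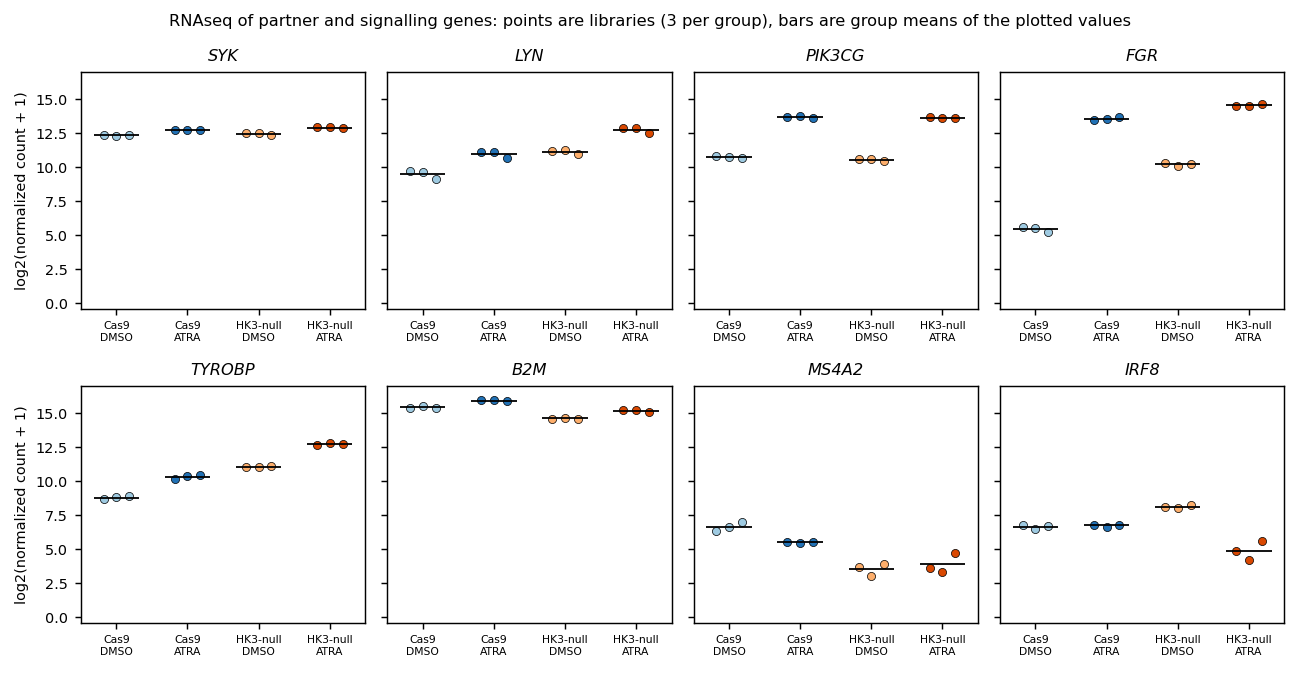
Log2 of the normalized count plus 1 (vertical axis) for 8 partner, signalling and transcription factor genes in the 12 RNAseq libraries; points are libraries, 3 per group, and bars are the means of the plotted values. LYN and TYROBP were higher with HK3-null and with ATRA, FGR rose most with ATRA in Cas9 control cells (8.12 on the log2 scale), SYK lay in a narrow range, and B2M and MS4A2 were lower in HK3-null cells at both treatments.

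Each list of pathway genes is given with its counts beside the background above and with its median log2 change, which over all tested genes lay between -0.01 and 0.01 in every comparison. Of the activating signal genes downstream of Fc receptors, 41 were tested, and 11 were called higher and 3 lower in HK3-null cells in DMSO (median 0.33) and 10 and 3 in ATRA (median 0.43). Of the 21 tested inhibitory signal genes, 6 were called higher and 2 lower in DMSO (median 0.40), and 7 higher and 0 lower in ATRA (median 0.61). The inhibitory receptors CD300A (3.44 in DMSO, adjusted p = 1.12e-08) and PECAM1 (3.33, adjusted p = 3e-09) were among those called higher. SLA2 was 1 of the 2 called lower in DMSO (-2.06, adjusted p = 2.53e-06). Of 20 tested receptors and adaptors that use an ITAM beside FCER1G, 8 were called higher and 1 lower in DMSO (median 0.87) and 12 and 2 in ATRA (median 1.79), among them SIRPB1 (3.39 in ATRA, adjusted p = 1.83e-10) and TREM1 (2.65 in ATRA, adjusted p = 1.33e-05), both of which signal through TYROBP. In this list CLEC4E, LILRA4 and LILRA6 passed the filter through HK3-null libraries alone, and without them 6 of 17 were called higher and 1 lower in DMSO (median 0.69) and 9 and 2 in ATRA (median 1.15). CLEC4D, a C-type lectin receptor that signals through FCER1G, had 27, 33 and 17 normalized counts in Cas9 control DMSO, 4, 3 and 0 in Cas9 control ATRA, 557, 591 and 542 in HK3-null DMSO and 181, 146 and 132 in HK3-null ATRA. The 4 groups did not overlap. The genotype difference of CLEC4D was called in ATRA (adjusted p = 0.00524) and not in DMSO (adjusted p = 0.13), in a fit whose SE of 2.37 rests on a library at 0. Of 9 other tested Fc receptors and Fc-binding proteins, 2 were called higher and 2 lower in DMSO (median -0.82), and 0 higher and 1 lower in ATRA (median 0.08). Without FCER2, which passed through HK3-null libraries alone, 1 of 8 was called higher and 2 lower in DMSO (median -0.90), and 0 higher and 1 lower in ATRA (median -0.30). The 1 called higher was FCAMR, with 0, 0 and 1 normalized counts in Cas9 control DMSO and 1, 1 and 1 in HK3-null DMSO. That call rests on libraries at 0 and shows no difference in level. The activating, inhibitory and transcription factor lists held 0 genes that passed through HK3-null libraries alone. FCMR, the IgM receptor, had 2, 0 and 1 normalized counts in Cas9 control DMSO, 8, 6 and 15 in Cas9 control ATRA, 2, 2 and 1 in HK3-null DMSO and 93, 114 and 118 in HK3-null ATRA. FCMR passed the filter through ATRA libraries alone, so that its change with ATRA is given as counts, without a p. Its genotype difference in ATRA was not called (adjusted p = 0.175), in a fit whose SE of 2.16 rests on a library at 0.

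Under ATRA the inhibitory list had 8 of 21 called higher and 0 lower in Cas9 control cells (median 0.74) and 11 and 0 in HK3-null cells (median 1.22). SLA, an adaptor that restrains receptor signalling, changed by 2.92 in control cells (adjusted p = 1.3e-08) and by 4.27 in HK3-null cells (adjusted p = 5.9e-10). The activating list had 7 higher and 3 lower in control cells (median 0.11) and 9 and 2 in HK3-null cells (median 0.30), with PIK3CG, a catalytic subunit of phosphoinositide 3-kinase, at 2.92 and 3.07 (adjusted p = 7.16e-11 and 7.76e-11). The ITAM list had 6 higher and 5 lower in control cells (median 0.45) and 7 and 1 in HK3-null cells (median 0.83). The other Fc receptors had 4 higher and 1 lower in control cells (median 1.34) and 3 and 0 in HK3-null cells (median 1.16). Genes that passed the filter through ATRA libraries alone were TREM2, LILRA4 and LILRA6 in the ITAM list and FCMR, FCAMR and FCRL2 among the other Fc receptors. Without them the ITAM list had 5 higher and 4 lower of 17 in control cells (median 0.43) and 6 and 1 in HK3-null cells (median 0.68), and the other Fc receptors had 2 higher and 1 lower of 6 (median 0.61) and 1 and 0 (median 0.57). FCER2 was 1 of these 2 called higher in control cells, with 0, 0 and 1 normalized counts in DMSO and 1, 2 and 1 in ATRA. Its call rests on libraries at 0.

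Of 20 tested transcription factors known to act at Fc receptor genes, 2 were called higher and 1 lower between genotypes at either treatment (medians 0.15 in DMSO and 0.37 in ATRA), and 4 higher and 2 lower with ATRA in either genotype. SPI1, which encodes PU.1, differed between genotypes by 0.47 in DMSO (SE 0.05, adjusted p = 2.01e-05) and by 0.65 in ATRA (adjusted p = 1.23e-06), short of 2-fold. IRF8, a factor of monocyte development, had 106, 86 and 103 normalized counts in Cas9 control DMSO, 110, 98 and 111 in Cas9 control ATRA, 270, 261 and 300 in HK3-null DMSO and 28, 17 and 48 in HK3-null ATRA. It was thus higher in HK3-null cells in DMSO (1.5, adjusted p = 0.00108) and lower in ATRA (-1.90, adjusted p = 0.000165). CEBPB rose with ATRA by 2.96 in control cells (adjusted p = 5.12e-08) and by 3.87 in HK3-null cells (adjusted p = 4.65e-09).

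Markers of other cell types moved with the genotypes beside the receptors. The summed level of 8 neutrophil maturation markers was 2486 to 2688 normalized counts in Cas9 control DMSO, 15335 to 16035 in Cas9 control ATRA, 12733 to 14387 in HK3-null DMSO and 71317 to 75024 in HK3-null ATRA. CYBB, a subunit of the phagocyte oxidase, made up a large part of it, with means of 224, 6090, 8180 and 45700 in that order, while CXCR2 had means of 462, 757, 357 and 634 and so was lower in HK3-null cells at both treatments. That of 8 monocyte and macrophage markers was 8042 to 8838, 1971 to 2064, 45387 to 47269 and 26122 to 29254 in the same order, most of it LYZ, with CD163, MRC1 and MSR1 at a mean of 1 or less in every group. The summed level of 6 eosinophil markers was 7261 to 8177, 515 to 642, 163492 to 171206 and 43840 to 52740 in the same order, mostly PRG2. With ATRA this sum fell in both genotypes, as did PRG2 and EPX by mean. CCR3 (means 1.67, 226, 5.67 and 582) and CLC (5.33, 16, 182 and 357) rose instead. Sums of 6 markers each for B cells, NK cells and T cells stayed at or under 1241, MS4A1 and CD5 were at 0 in all groups, and basophil and mast cell markers summed to 438 or less. The part of these differences in the receptor values was not tested. In bulk samples fewer cells of a type and less RNA per cell cannot be told apart.

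Some of the nearest tested genes on either side were read beside the members. Beside FCGRT, RCN3 lies 1575 bp away and had means of 1, 2, 17.7 and 64.7 normalized counts in Cas9 control DMSO, Cas9 control ATRA, HK3-null DMSO and HK3-null ATRA, with 21, 16 and 16 in HK3-null DMSO and 62, 51 and 81 in HK3-null ATRA, all above the control libraries. KIR3DL2, 7028 bp from FCAR, had means of 16, 13, 105 and 24.3 in the same order, and its genotype difference was called in DMSO (2.85, adjusted p = 0.00163) but not in ATRA (1.18, adjusted p = 0.106), where FCAR was called. RDH13, on the other side of FCAR, differed by -0.46 and -0.64. BOLA1, 98959 bp from FCGR1A, had means of 1.67 and 2.67 in control cells and 100 and 111 in HK3-null cells. In the low-affinity cluster, HSPA6, HSPA7 and FCRLB had means of at most 12.7 in every group. HSPA7, 14646 bp from FCGR3B, had 1, 0 and 1 normalized counts in Cas9 control DMSO and 7, 12 and 4 in HK3-null DMSO, and its fitted difference was called in DMSO (6.12, SE 2.11, adjusted p = 0.0285) but not in ATRA (adjusted p = 0.304). That fit rests on a library at 0, and HSPA7 passed the filter through HK3-null libraries alone. SDHC differed between genotypes by 0.10 in DMSO and 0.08 in ATRA.

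The genes whose pattern over the 12 libraries was most like that of a member, by Pearson's r of the deposited log2 values among 11237 genes, were FUCA1 for FCER1G (0.9933), NRP1 for FCGRT (0.9888), NAPRT for FCAR (0.9943), RNF125 for FCGR2A (0.9815), TRAM2 for FCGR1A (0.9604) and SNTB2 for FCGR1B (0.9697). The 12 libraries form 4 groups, so that r mostly reflects the 4 group means.

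Chromatin accessibility was read from ATACseq, whose deposited regions all differ by at least 1.5-fold between genotypes in ATRA, so that only the comparison of genotypes in DMSO was tested. The region that lists FCGR3B spans 1028 bases (chr1:161621446-161622474) and overlaps 0 RefSeq genes. It lies 722 bases past the 3′ end of FCGR3B and 9489 bases from its transcript start, between FCGR3B and a leucine tRNA gene, TRL-CAA6-1, that is also listed. Its central 300 bases (plus strand, chr1:161621811-161622110) are shown with matches to TTNNGNAA and to AGGTCA or its reverse complement in capitals.
FCGR3B region: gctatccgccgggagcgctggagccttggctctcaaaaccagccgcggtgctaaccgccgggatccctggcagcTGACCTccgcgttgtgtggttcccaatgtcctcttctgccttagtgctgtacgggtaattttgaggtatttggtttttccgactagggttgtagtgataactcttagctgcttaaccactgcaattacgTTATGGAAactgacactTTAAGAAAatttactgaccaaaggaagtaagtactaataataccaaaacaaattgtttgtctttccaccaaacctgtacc
Of the 42-base windows of the region, 73.3% occur once on chromosome 1. The 300 bases held 2 matches to TTNNGNAA and 1 to AGGTCA, and 0 to GAGGAAG or TTCNNNGAA.

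The signal of the region, as fragment density, was 7.69 and 7.39 in Cas9 control DMSO, 5.24 and 8.70 in Cas9 control ATRA, 34.7 and 29.1 in HK3-null DMSO and 24.3 and 40.3 in HK3-null ATRA. Both HK3-null DMSO libraries were above both Cas9 control DMSO libraries, as they were in 50.1% of the 8286 deposited regions, and the order in ATRA follows from the selection. In DMSO the log2 difference was 1.94 (SE 0.42, n = 2 per group), in a set in which limma called 42.7% of tested regions higher, 43.9% lower and 86.6% either way. The region passed the filter on mean signal through the HK3-null libraries, so that the difference is given without a p. A second region 8478 bases away and 112 bases from TRL-CAA6-1 went in the other direction, with 278 and 241 in Cas9 control DMSO, 205 and 152 in Cas9 control ATRA, 112 and 103 in HK3-null DMSO and 37.2 and 83.1 in HK3-null ATRA (log2 difference in DMSO -1.26, adjusted p = 0.000404).

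**Figure D4:**
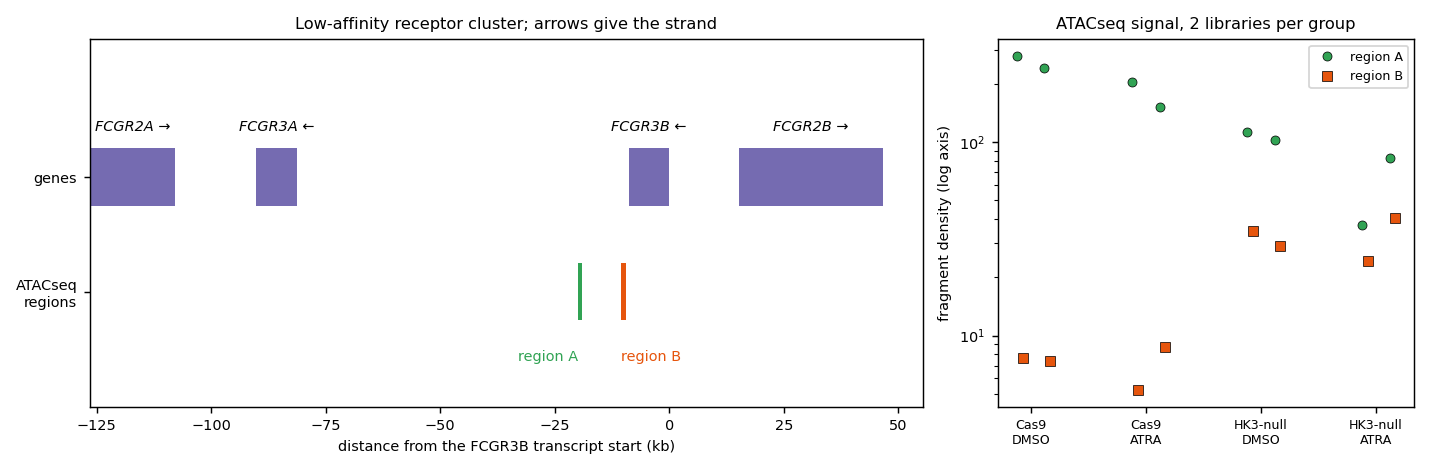
Left, the 4 low-affinity receptor genes and the 2 ATACseq regions next to FCGR3B by distance from the FCGR3B transcript start in kb; right, fragment density (log axis) of both regions in the 8 libraries, 2 per group. Region B, which lists FCGR3B, lay between 5.24 and 8.70 in Cas9 control and between 24.3 and 40.3 in HK3-null libraries, and region A, beside the tRNA gene, was lower in all HK3-null libraries.

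Within 100 kb of a member 10 deposited regions were found, around 9 of the members. Both HK3-null DMSO libraries were above both control libraries in 6 of them and below in 3, against 50.1% and 44.6% of all deposited regions, so that most regions had 1 of these orders. One of these, 98677 bases from FCGR1A, lists BOLA1 and SV2A and had 6 and 9.25 in Cas9 control DMSO against 64.2 and 59.1 in HK3-null DMSO (log2 difference 2.89). It too passed the filter on mean signal through the HK3-null libraries, so that its difference is given without a p. No deposited region lists FCAR, FCGRT or FCER1G, and since the regions were selected on the ATRA contrast this says nothing of their accessibility outside that selection.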

How the data were processed

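RNAseq was performed on 12 libraries and ATACseq on 8. Per the labels and methods, directional paired-end reads were mapped to GRCh38/hg38, and the submitters' processing notes name DESeq2 and MACS2. An RNAseq aligner is not given in the sources used here, nor is a counting program. The authors deposited RNAseq values as the log2 of scaled, rounded counts, with 0 written as the log2 of 0.001. The methods describe RPKM, but 2 to the power of each value was whole within a relative tolerance of 0.0001, and no length scaling was visible. The ATACseq values were deposited as signal, the fragment density over merged MACS2 regions after bwa mem alignment and reduction of all libraries to equal fragment numbers. ATACseq depth is unknown.

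Entries without a gene name (330 of 28381, at most 0.00926% of counts) were left out. The log2 values were fitted with limma 3.58.1 in R 4.3.3 (trend, 1 mean per group, 12 libraries) over the 13256 genes with a mean above 3 in at least 1 group. Interactions were called at an adjusted p under 0.05. ATACseq was fitted as log2(signal + 1) over 6214 regions, those whose mean exceeded 17.08 (percentile 25), and called at 1.5-fold. Scripts were tested on simulated data. Depth before scaling was estimated from the steps between whole numbers. Floors of 3 counts cover counting error only.

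The study calls the samples biological replicates. Nothing says whether they came from separate cultures, so p-values may measure technical spread. Same-numbered libraries deviated together (r 0.178 to 0.6315 in 18 pairs, -0.6426 to 0.2862 in 36 pairs with different numbers, over 10667 genes), so the numbers pair the libraries.

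The members and lists were chosen with earlier results of these data known. Named genes were all members, HK3, the nearest tested neighbours, the 3 most alike genes, and, in each comparison, at most the 3 called genes of each list with the largest change and a mean of at least 50 in a group compared. Only some of these are given in the text, and some are not reported here. Alternatives were the replicate block, log2(count + 1), other filters, quantile normalization, the 2 groups alone, no trend, the thresholds of the methods text, and leaving out each library.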

Additional observations from a re-analysis of the deposited data

Results flagged for a closer look

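The ATRA change differed between HK3-null and Cas9 control cells, by the interaction term of the limma fit, for 2 members. For FCER1G the difference was 1.15 (adjusted p = 7.47e-05), with an ATRA rise in both genotypes, and for FCAR it was 0.77 (adjusted p = 0.0311), with an ATRA fall in Cas9 control cells. Among the other genes named, the ATRA change was smaller in HK3-null than in control cells for the kinase FGR, -3.77 (adjusted p = 1.89e-07), for CD300A, -0.83 (adjusted p = 0.0329), and for HK3 itself, -1.90 (adjusted p = 0.00202). It was larger for SIRPB1, 0.93 (adjusted p = 0.000501), SLA, 1.34 (adjusted p = 0.000696), and CEBPB, 0.91 (adjusted p = 0.0199). IRF8 changed with ATRA in HK3-null cells, with an interaction of -3.40 (adjusted p = 0.000421).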

How the results depend on the processing

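Of the values of single members under the alternatives, 638 kept their direction and side of the threshold, 13 lost the call, 9 gained it and 2 changed sign. The members called between genotypes numbered 3 to 6 in DMSO and 4 to 6 in ATRA under all settings, and FCAR and FCGRT were called in each. With the replicate block the counts were 4, 5, 2, 2 and 2 in the order DMSO genotype, ATRA genotype, ATRA in Cas9 control, ATRA in HK3-null and interaction, as without it. The block changed no other call of a member, but over all tested genes it raised the interactions called from 1209 to 2898. In Cas9 control cells the members called for ATRA were 1 with only the 2 groups compared and 5 with the thresholds of the methods text, against 2, and 1 to 2 when 1 library was left out. Members with an interaction numbered 1 to 3 when 1 library was left out. Values that changed sign were the FCAR change with ATRA in HK3-null cells, 0.01 without HK3-null DMSO replicate 1 (-0.22 to 0.01 over the libraries left out), and the FCGRT interaction, 0.11 without Cas9 control DMSO replicate 2 (-1.55 to 0.11). Quantile normalization took the FCGR1B genotype difference in DMSO to 0.97, under 2-fold, and the FCAR change with ATRA in Cas9 control cells to -1.06, past it. The fitted log2 difference of FCGR3B between genotypes in DMSO was 4.67 on log2(count + 1) and 14.57 as deposited, and is no bound. For the region that lists FCGR3B, the log2 difference in DMSO was 1.25 to 2.13 under the alternatives that gave a value. No call is read from it, because the region passed the filter through the HK3-null libraries. Without HK3-null ATRA replicate 2 the region fell under the filter on mean signal and gave no value. FCGR2B, FCGR3A and FCER1A were limited by depth, and a single HK3-null label limits every genotype comparison.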
